A study of Mus musculus with 9 samples.

Results

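Cytosolic ribosomal protein genes were followed in single-cell RNA-seq libraries from whole testes of 9 male C57BL/6 mice at postnatal day (PND) 24, with 1 library per mouse. Genes were chosen by symbol, taking those that begin with Rpl or Rps and a digit together with Rplp0, Rplp1, Rplp2 and Rpsa, and leaving out the Rps6k kinases, pseudogenes and antisense genes. The rule found 86 of the 32285 genes in the files. Of these, 77 are core genes, the standard subunit genes, with 46 of the large (60S) and 31 of the small (40S) ribosomal subunit. The other 9 are Rpl10l, Rpl39l, Rpl36al, Rpl22l1, Rpl3l, Rpl7l1, Rps27l and Rps27rt, which are further copies of core genes, and Rps19bp1, which encodes a protein that binds a ribosomal protein and is no subunit. Rps4l is not among the genes listed in the files. The 4 control mice were littermates or non-littermates of the conditional knockout (cKO) mice. In the 2 NELF-B cKO and 3 TDP-43 cKO mice, the Stra8-iCre transgene, active in spermatogonia (SG) from PND4, removes exons 1 to 4 (Nelfb) or exon 3 (Tardbp) of a floxed allele whose partner is a null allele. The transgene acts in germ cells, so somatic cells of a cKO mouse keep the floxed allele beside the null allele. Ribosomal protein genes were compared between germ cell stages in the control mice and between the genotypes within a cell type.

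A ribosome is built in the nucleolus from ribosomal RNA and ribosomal proteins, most of which occur once in each particle, so their mRNAs are among the most abundant in dividing cells. Most of these mRNAs begin with a 5′ terminal oligopyrimidine (TOP) run, a C followed by further C and U bases, through which mTOR and LARP1 control their translation together. Rpl10, Rpl36a, Rpl39 and Rps4x lie on the X chromosome, which is silenced in pachytene spermatocytes by meiotic sex chromosome inactivation. Autosomal retrocopies and relatives of these genes are known from the testis, among them Rpl10l, which male meiosis requires, and Rpl39l.

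The start sites of the X-linked genes, their autosomal copies and 3 autosomal members with contrasting patterns are printed here because the results turn on these genes. Each window runs from 15 bases before the annotated start site to 15 bases from it, 5′ to 3′, as RefSeq gives it for GRCm38.p6. Capitals mark a pyrimidine run, defined as a C within 5 bases of the start site followed by at least 4 C or T. The windows lie at chrX:74270801-74270830 (plus strand) for Rpl10, chr12:66284387-66284416 (minus strand) for Rpl10l, chrX:134585639-134585668 (plus strand) for Rpl36a and chr12:69184053-69184082 (minus strand) for Rpl36al. Those of Rpl39 and Rpl39l lie at chrX:37085208-37085237 (minus strand) and chr16:10170213-10170242 (plus strand), and that of Rps4x lies at chrX:102189377-102189406 (minus strand). Those of Rpl14, Rps27 and Rps27rt lie at chr9:120571502-120571531 (plus strand), chr3:90213634-90213663 (minus strand) and chr9:114982725-114982754 (minus strand). The bases after the start site belong to the first exon and the bases before it to the promoter.
Rpl10: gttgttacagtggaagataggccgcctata
Rpl10l: tttggcctccattttgcggctggcggtggg
Rpl36a: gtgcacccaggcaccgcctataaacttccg
Rpl36al: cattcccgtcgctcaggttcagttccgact
Rpl39: cctaagctccgCCTCTagcgacttcttcta
Rpl39l: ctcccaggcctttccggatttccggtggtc
Rps4x: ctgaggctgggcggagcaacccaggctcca
Rpl14: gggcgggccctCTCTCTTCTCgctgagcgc
Rps27: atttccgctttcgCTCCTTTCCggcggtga
Rps27rt: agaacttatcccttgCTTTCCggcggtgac
A run was found in 27 of the 57 core genes with a RefSeq window (47.4%), against 5718 of 27025 genes of all kinds (21.2%). Among the X-linked members, Rpl39 was the 1 of 4 with a run, and Rpl10l, Rpl36al and Rpl39l had none. Such a match describes the letters around an annotated start and not the start used in these cells.

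The libraries held 119203347 to 159407373 unique molecular identifiers (UMIs), each of which counts 1 captured transcript at its 3′ end, so that levels of different genes can be set side by side without division by length. Of 45132 barcodes past the filters, 27408 received a cell type from marker genes and 24065 were kept, after removal of the germ cells of cKO mice in which the targeted gene still had a UMI (233 in NELF-B and 3110 in TDP-43 cKO mice). The cells were SG, spermatocytes (SC) of the stages pL (preleptotene), L (leptotene), Z (zygotene), P (pachytene) and D (diplotene), round spermatids (RS) and somatic cells, each named as the type its marker genes are most like. Early SC stands for pL, L and Z together. The share of barcodes that received a cell type differed between the genotypes. It was 33.1, 30.2, 51.7 and 63.5% in control, 65.4 and 94.4% in NELF-B cKO and 98.6, 95.1 and 95.9% in TDP-43 cKO mice. The part of this difference in the comparisons of genotypes was not tested. Any pair of libraries shared at most 24 cell barcodes. In SG, with no cell left out, the level of Nelfb was 62.7 to 76.1 CPM (UMIs of a gene divided by the summed UMIs of the cells and scaled to 1000000) in control mice and 6.03 and 4.92 CPM in NELF-B cKO animals, and that of Tardbp was 63.1 to 69.6 CPM in control mice and 30.8, 34.6 and 35.5 CPM in TDP-43 cKO animals. The sequenced 3′ ends lie outside the deleted exons, so these levels do not read the deletion itself. Barcodes with 1 to 100 UMIs, which hold free RNA, gave 6.63 to 7.40% of their UMIs to the core genes in control mice, 7.67 and 10.7% in NELF-B cKO mice and 14.1, 8.39 and 8.98% in TDP-43 cKO mice.

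In the control mice the core genes took a smaller share of the transcripts at each later stage from SG to RS. The 77 genes together held 14.0, 14.2, 14.0 and 14.4% of the UMIs of SG in control replicates 1 to 4. In early SC they held 10.5, 10.1, 10.3 and 9.94%, in P 7.30, 7.07, 6.86 and 7.04%, in D 5.47, 5.94, 5.48 and 5.51% and in RS 4.28, 4.78, 4.18 and 4.51%. No mouse of a stage overlapped with a mouse of the stage before or after it in this order. The means were 14.2 ± 0.176% in SG, 10.2 ± 0.255% in early SC, 7.07 ± 0.177% in P, 5.60 ± 0.229% in D and 4.44 ± 0.266% in RS (SD, n = 4). Within early SC the share was 12.1 to 12.5% in pL, 8.70 to 9.21% in L and 8.51 to 8.89% in Z, and the ranges of L and Z overlapped.

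A share is not an amount per cell. A P cell held 3626 to 4968 core UMIs on average and a D cell 2929 to 4418, against 2348 to 3946 in SG, 1069 to 1498 in early SC and 334 to 1276 in RS. The named P and D cells, with means of 49705 to 70236 and 53588 to 76850 UMIs per cell, thus spread their core UMIs over larger totals than SG. The mean of SG was 16752 to 27742 UMIs per cell. These amounts rest on which clusters were named. The largest unnamed clusters were most like D (9829 barcodes, median 1789 UMIs) and P (4919 and 1764 barcodes, medians 1546 and 3116.5 UMIs). A named SG cluster of 458 barcodes had a median of 2322.5 UMIs.

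**Figure D1:**
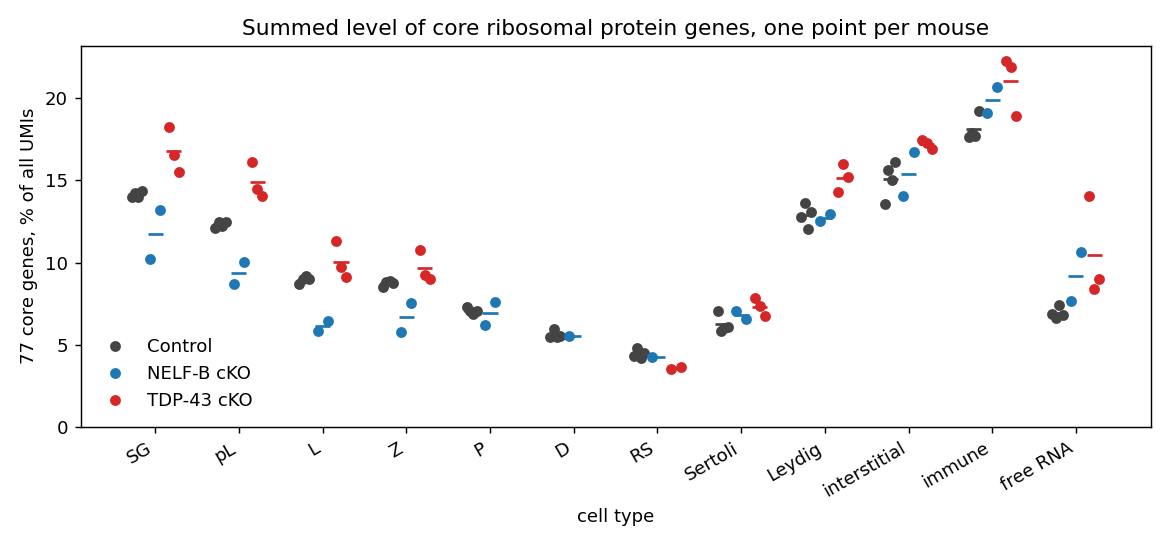
Summed level of the 77 core genes, as a percent of all UMIs (vertical axis, from 0), in each cell type with at least 20 cells in a mouse and in free RNA (horizontal axis). Points are mice and short lines are group means. The control mice fall from 14.2% in SG to 4.44% in RS, and in SG and pL the NELF-B cKO mice lie below and the TDP-43 cKO mice above all control mice.

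Single genes followed the summed level to different degrees. Rpl13 of the large and Rps24 of the small subunit were the 2 most abundant core genes in control SG, with 4179.7, 3640.1, 3971 and 4073 CPM for Rpl13 and 3936, 3804, 3867 and 4035 CPM for Rps24. In RS, Rpl13 was still the highest at 1787, 1678, 1609 and 1739 CPM. All 73 autosomal core genes had lower CPM in RS than in SG in each of the 4 control mice, and the median gene kept 31.1% of its SG level.

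The extremes lay far apart. Rpl14, a large subunit gene, kept 3.68% of its SG level, with 2097, 1952, 2112 and 2137 CPM in SG, 715, 567, 579 and 620.4 CPM in P and 206, 209, 211 and 202 CPM in D and 96.7, 58.4, 90.4 and 59.7 CPM in RS. Rps3, which sits at the mRNA entry of the small subunit, kept 5.69%, Rpl10a of the large subunit 5.94% and Rpl4 9.51%. Rpl36, also of the large subunit, kept 79.2%, with 1049, 1299, 1135 and 1135 CPM in SG and 777, 1089, 861 and 934 CPM in RS, and these values overlapped between mice. Rps27 kept 74.9%, Rpl11 68.8%, Rpl30 68.7% and Rps20 67.0%. These genes were named for this ratio after it had been seen.

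**Figure D2:**
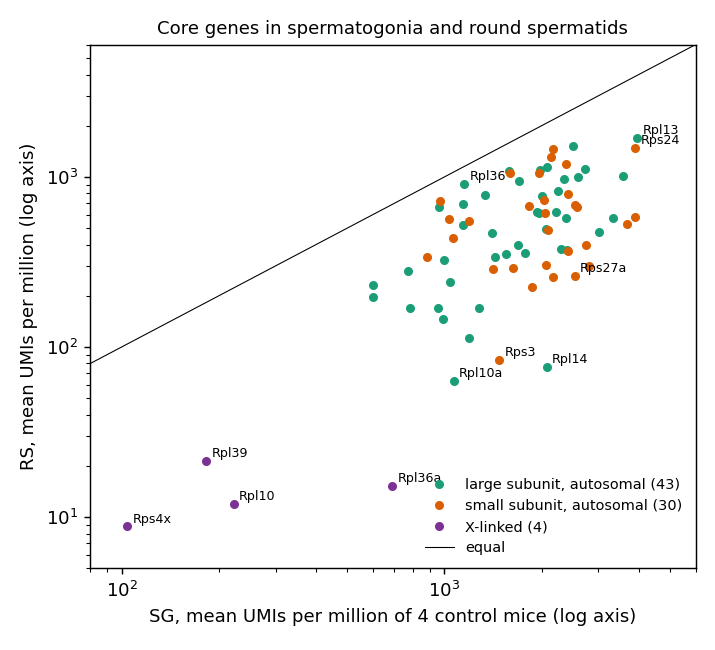
Mean level of each core gene in SG (horizontal axis) and in RS (vertical axis), as CPM over 4 control mice on log axes; the line marks equal levels. Every gene lies below the line, the autosomal genes between Rpl36 (79.2% of the SG level) and Rpl14 (3.68%), and the 4 X-linked genes at the bottom left.

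From SG to early SC, most core genes fell relative to other genes. All 86 genes passed the filter on low counts in the stage comparisons, and all 77 core genes did so in each genotype comparison. With edgeR's quasi-likelihood test with Benjamini-Hochberg adjustment over 19474 genes, 53 of 77 core genes were lower in early SC and 5 higher, where 29.4% of all tested genes were lower and 28.5% higher. The median log2 fold change of the core genes was -0.35, against 0.03 over all genes. Both subunits took part, with 32 of 46 large and 21 of 31 small subunit genes lower. The lowest were X-linked Rps4x and 3 small subunit genes, Rps2, Rps3 and Rpsa, the laminin receptor homolog. Rps2 went from 2676, 2794, 2766 and 2963 CPM in SG to 1159, 931, 1058 and 1031 CPM in early SC, a log2 fold change of -1.33 ± 0.08 (SE, adjusted p = 1.43e-10). The 5 higher genes were Rpl39 on the X chromosome and Rps27, Rps20, Rps28 and Rps29 of the small subunit, the last of which is named here because it completes the count. Rps27, of the small subunit, rose from 867, 1059.7, 981 and 956 CPM to 1216, 1769, 1529 and 1394 CPM, a log2 fold change of 0.69 ± 0.07 (adjusted p = 1.87e-07).

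From early SC to P, the summed share was lower in every control mouse, but the direction for single autosomal genes depended on how libraries were scaled. After TMM scaling, which sets the bulk of genes to no change, 30 core genes were lower and 33 higher, where 35.1% of all tested genes were lower and 37% higher, and the core median was 0.05 against -0.07 over all genes. Without TMM, 61 core genes were lower and 6 higher, with medians of -0.56 for the core and -0.66 for all genes, and with DESeq2 41 were lower and 19 higher. The core thus stood slightly above the median of all genes on each scale (with DESeq2, -0.22 against -0.35). After TMM scaling, large subunit genes had 14 lower and 23 higher, and small subunit genes 16 lower and 10 higher. Without TMM the large subunit had 34 lower and 6 higher and the small subunit 27 and 0, and with DESeq2 22 and 14, and 19 and 5. Rpl24 and Rplp0, the latter the base of the large subunit stalk, had the highest values, and both were also higher in CPM in all 4 mice. Rpl24 went from 855, 626, 721 and 681 CPM to 1109, 1029, 1052 and 1056 CPM, a log2 fold change of 1.16 ± 0.08 (adjusted p = 1.55e-10 by edgeR's quasi-likelihood test with Benjamini-Hochberg adjustment). The 4 lowest were the X-linked genes. Without control replicate 2 or 3 the core median was -0.23 or -0.18, and 17 genes were higher in either case.

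From P to D, 43 core genes were lower and 5 higher, where 33.5% of all tested genes were lower and 31.3% higher, and the core median was -0.20 against -0.08 over all genes. This direction too rests on the scale, since without TMM 65 were lower and 1 higher, and with DESeq2 23 were lower and 28 higher, with a core median of 0.01 against 0.18 over all genes. Rpl10a, Rpl14, Rpl22 and X-linked Rpl39, all of the large subunit, had the lowest values. Rpl22 had 455, 413, 365 and 410.3 CPM in P and 144, 147, 135 and 136 CPM in D, a log2 fold change of -1.35 ± 0.08 (adjusted p = 6.32e-11 by edgeR's quasi-likelihood test with Benjamini-Hochberg adjustment). The highest values were those of the small subunit genes Rps29, Rps26, Rps27 and Rps7. Of the 77, Rps29 was the 1 that was higher in CPM in all 4 mice, with 968, 1469, 1236 and 1069 CPM in P and 1085, 1778, 1443 and 1242 CPM in D, and the value of Rps7 turned from 0.19 to -0.01 without TMM.

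From D to RS, 65 core genes were lower and 4 higher, where 36.8% of all tested genes were lower and 40.1% higher. The core median was -0.49 while that of all genes was 0.15. Rps3, Rps27a, which encodes a ubiquitin fusion protein of the small subunit, Rpl4 and Rpl14 fell the most. Rps27a had 1016, 1013, 969.6 and 1024 CPM in D and 325, 257, 259 and 209 CPM in RS, a log2 fold change of -2.13 ± 0.08 (adjusted p = 3.10e-14 by edgeR's quasi-likelihood test with Benjamini-Hochberg adjustment). Rps3 had 307, 332, 306 and 339 CPM in D and 107, 76.4, 82.7 and 70.6 CPM in RS. After TMM scaling and with DESeq2, which called 65 lower and 4 higher, the 4 higher genes were the 4 X-linked ones. Without TMM, 58 were lower and 8 higher, and 4 of the 8 were autosomal, and in cells with at least 5000 UMIs 58 were lower and 8 higher. When any control mouse was left out, 65 to 67 core genes were lower.

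**Figure D3:**
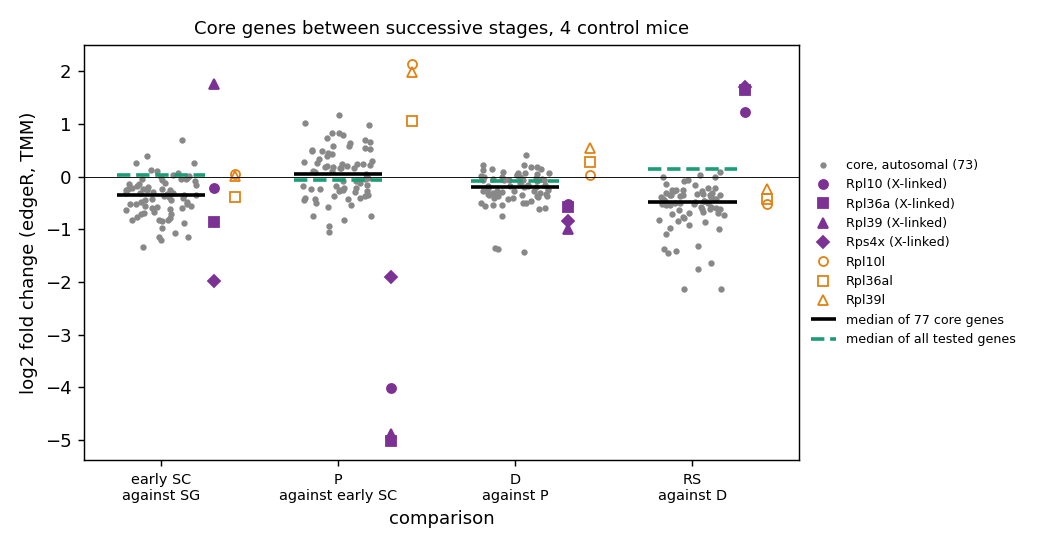
Log2 fold changes of the core genes and 3 copies between successive stages of the 4 control mice (edgeR after TMM scaling, vertical axis). Grey points are 73 autosomal core genes, purple symbols the X-linked ones and open symbols the copies; lines mark the medians of core genes and of all tested genes. The X-linked genes lie at the bottom in P against early SC, between -5.03 and -1.90, and at the top in RS against D; the autosomal points of P against early SC and of D against P shift down without TMM.

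Of the 77 core genes, the X-linked ones had the 4 lowest fold changes at the step to P. Rpl10, whose protein joins the large subunit last, had 193, 251, 210.0 and 235 CPM in SG, 245, 280.5, 255 and 287 CPM in pL, 181, 207, 186 and 197 CPM in L and 70.9, 100.2, 98.0 and 89.8 CPM in Z. In P it had 9.87, 7.25, 7.12 and 5.89 CPM, in D 3.20, 4.37, 5.07 and 4.73 CPM and in RS 16.9, 10.5, 10.0 and 10.5 CPM. P and D cells of all 4 mice lay below every earlier stage, and RS lay between D and Z. Rpl36a and Rpl39, both of the large subunit, also lay lower in P than in SG in all mice, with 646 to 748 CPM for Rpl36a in SG and 5.31 to 10.7 CPM in P. Rpl39 was higher in early SC first, with 150.1, 219, 178 and 185 CPM in SG, 546, 914, 749.6 and 789 CPM in pL and 567, 864, 778 and 813 CPM in L, and then had 14.7, 15.4, 12.2 and 9.99 CPM in P. Rps4x, of the small subunit, was the lowest core gene in SG, with 99.9, 72.0, 115 and 129 CPM, and had 22.9, 28.1, 31.5 and 32.8 CPM in pL and 6.58, 4.51, 3.98 and 3.22 CPM in P.

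By edgeR's quasi-likelihood test with Benjamini-Hochberg adjustment, P against early SC gave a log2 fold change of -5.03 ± 0.16 for Rpl36a (SE, adjusted p = 9.84e-15), -4.89 ± 0.15 for Rpl39 (adjusted p = 6.44e-15), -4.02 ± 0.15 for Rpl10 (adjusted p = 6.24e-14) and -1.90 ± 0.31 for Rps4x (adjusted p = 2.00e-05). Other genes of the X chromosome had a median of -2.95, with 552 of 712 lower. Rps4x had already fallen at the earlier step, by 1.98 from SG to early SC, where Rpl10 had a value of -0.22 (adjusted p = 0.169) and Rpl36a fell by 0.85. From P to D, Rpl10 fell by 0.51, Rpl36a by 0.57 and Rpl39 by 0.99, and Rps4x had -0.84 ± 0.36 (adjusted p = 0.0504). From D to RS all 4 rose, by 1.23 ± 0.18 for Rpl10 (adjusted p = 4.86e-06), 1.65 ± 0.18 for Rpl36a, 1.70 ± 0.38 for Rps4x and 1.71 ± 0.16 for Rpl39, while 581 of 712 other X-linked genes rose with a median of 1.89. These levels in RS were low: the free RNA of the same libraries held 43.1 to 69.5 CPM of Rpl10, 71.0 to 115 CPM of Rpl36a, 70.5 to 129.7 CPM of Rpl39 and 57.0 to 76.2 CPM of Rps4x, all above the RS level in the same mice, and RS held 7805 to 28299 UMIs per cell on average where D held 53588 to 76850. The P and D levels lay below those of free RNA too, in all 4 mice. The level of Rps4x was below that of free RNA in early SC as well, in all 4 mice, and above it in SG. The part of free RNA in the values from P to RS, and in those of Rps4x from early SC on, was not tested. Reads of Rpl10 and Rpl36a can also match pseudogenes, since 38.3% and 20.8% of the 90-base stretches near their transcript ends recur in Rpl10-ps3 and Rpl36a-ps1.

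The autosomal copies were higher in P than in early SC. Rpl10l on chromosome 12 had 61.5, 49.1, 63.6 and 53.2 CPM in SG, 39.7, 23.8, 35.9 and 26.6 CPM in pL, 83.2, 80.3, 76.1 and 93.6 CPM in Z, 167, 159, 154 and 163 CPM in P, 129.7, 146, 152 and 148 CPM in D and 100.3, 125, 111 and 117 CPM in RS. Its level was lowest in pL and highest in P, and every P value lay above every value of the stages before. Rpl39l on chromosome 16 had 427, 389, 384 and 360.5 CPM in SG, 356, 218, 220.1 and 224 CPM in L, 1025, 982, 890.4 and 992 CPM in P and 1176, 1311, 1192 and 1233 CPM in D. Rpl36al on chromosome 12 varied less, with 558, 531, 523 and 551 CPM in SG, 319, 292, 309 and 307 CPM in Z and 554, 517, 525 and 535 CPM in P. From early SC to P the log2 fold change was 2.15 ± 0.10 for Rpl10l (adjusted p = 8.58e-13), 1.99 ± 0.10 for Rpl39l (adjusted p = 9.22e-13) and 1.06 ± 0.07 for Rpl36al (adjusted p = 1.51e-10) by edgeR's quasi-likelihood test with Benjamini-Hochberg adjustment. These fold changes are after TMM scaling, and without it the median of all genes at this step lay lower. The values of the copies on that scale are not given. From SG to early SC the values of Rpl10l and Rpl39l were 0.05 ± 0.10 and 0.02 ± 0.09, and neither passed the test.

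As a share of each pair, the copy became nearly all of the transcripts in P. Rpl10l made up 16.4 to 24.1% of the UMIs of Rpl10 and Rpl10l in SG, 7.82 to 13.9% in pL, 14.6 to 22.7% in L, 43.7 to 54.0% in Z, 94.4 to 96.5% in P, 96.8 to 97.6% in D and 85.6 to 92.2% in RS. Rpl39l made up 64.0 to 74.0% of its pair in SG, 21.7 to 36.0% in pL, 20.1 to 38.6% in L, 54.5 to 68.4% in Z, 98.5 to 99.0% in P and 99.4 to 99.6% in D. Rpl39l thus outnumbered Rpl39 in SG and from Z on, and was outnumbered by it in pL and L. Rpl36al made up 41.5 to 46.4% in SG and 98.1 to 99.0% in P. In the free RNA of the control mice, Rpl10l made up 62.5 to 76.1% and Rpl39l 85.4 to 93.6%, and control replicate 1, with the highest share of both copies in free RNA, also had the highest share of both in SG, pL and L. In Sertoli cells, which are somatic, Rpl39l still made up 28.7 to 56.9% in control mice and 2.95, 12.9 and 9.18% in TDP-43 cKO animals, whose free RNA had 11.8, 58.8 and 54.0%. For Rpl10l the Sertoli share was 13.8 to 28.2% in the control mice, and its shares in SG, pL and L, and those of Rpl39l in pL and L, did not lie above the Sertoli range. Whether the UMIs of the copies in Sertoli cells came from free RNA was not tested. Sertoli cells had median depths of 1964 to 2553 UMIs against 16193 to 24438 in SG and 9780.0 to 11679.5 in pL.

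**Figure D4:**
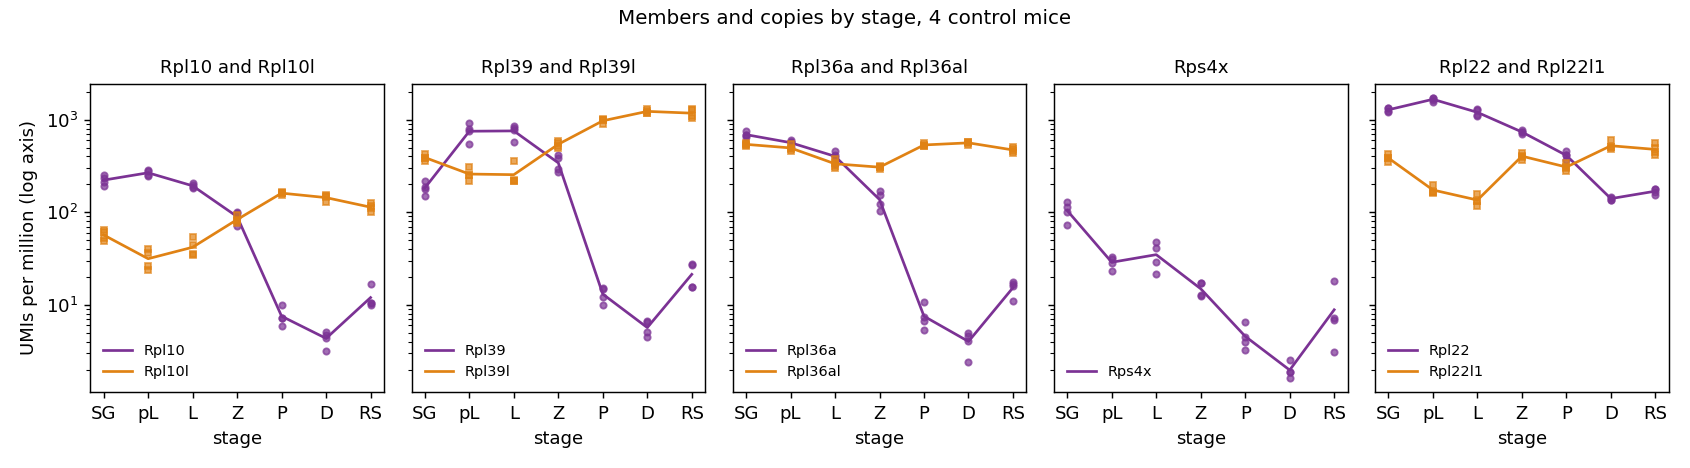
Levels of the X-linked members, of Rpl22 and of the copies from SG to RS, as CPM on a log axis shared by the panels. Points and squares are 4 control mice and lines join their means. Rpl10, Rpl39 and Rpl36a lie in P at 5.89 to 9.87, 9.99 to 15.4 and 5.31 to 10.7 CPM, while Rpl10l and Rpl39l lie above their SG level in every mouse and Rpl36al is at 517 to 554 CPM; Rpl22l1 passes Rpl22 in D.

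Rpl22 and Rpl22l1, an autosomal pair in which Rpl22 is known to repress its paralog, changed places between P and D. Rpl22 had 1218, 1336, 1226 and 1334 CPM in SG, 1565, 1715, 1628 and 1727 CPM in pL and 177, 166, 155 and 178 CPM in RS. Rpl22l1 had 425, 345, 384 and 384 CPM in SG, 159, 132, 133 and 118 CPM in L, 278, 343, 309 and 301 CPM in P and 502, 597, 479.5 and 512 CPM in D, and its share of the pair was 8.54 to 12.7% in L, 37.9 to 45.8% in P and 77.7 to 80.3% in D. From P to D, Rpl22l1 rose by 0.96 ± 0.10 (adjusted p = 6.68e-08 by edgeR's quasi-likelihood test with Benjamini-Hochberg adjustment). Rps27l, a relative of Rps27 known as a p53 target, rose by 0.87 ± 0.08 from SG to early SC (adjusted p = 4.10e-08), with 1126, 1054, 1049.9 and 1119.5 CPM in Z, and then fell by 0.59 to P, by 0.62 to D and by 0.36 to RS. Rpl7l1, a factor of large subunit assembly, had 98.9 to 103 CPM in SG and fell by 1.08 from D to RS. Rpl3l, the striated muscle relative of Rpl3, stayed at or under 6.41 CPM in SG and 0.323 CPM in D. Rps27rt had 56.6 to 77.8 CPM in SG and a share of 5.45 to 8.24% of its pair with Rps27 in SG and 5.76 to 9.06% in RS. Of its transcript-end stretches, 89.8% are identical to Rps27, and 28.4% of those of Rps27 recur in Rps27rt. Reads from these stretches match both genes, and the effect on the share was not tested. Rps19bp1 fell from D to RS (adjusted p = 6.70e-14), from 67.4 to 72.6 CPM to 6.73 to 12.7 CPM.

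Across the 20 control values (5 stages of 4 mice, which share libraries), the tested genes whose log level ran most like that of Rpl10l were Ybx1, Asnsd1 and Irak1bp1, with Pearson's r of 0.99 each. For Rpl39l they were 1700037H04Rik, Gm11992 and Odf4, also with 0.99 each. These are descriptions over the stages and are given without a test.

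Other genes of the translation machinery were followed in 3 lists, and their counts are read against the background of all genes, 29.4% lower and 28.5% higher in early SC, 35.1% and 37% in P, 33.5% and 31.3% in D and 36.8% and 40.1% in RS. Of 14 genes for elongation and initiation factors and other TOP mRNAs, 9 were lower (64.3%) and 4 higher (28.6%) in early SC than in SG, with Eef1d, a subunit of the elongation factor 1 complex, lowest at -1.21 ± 0.11 and the initiation helicase Eif4a2 highest at 1.38 ± 0.15. In P, 2 were lower and 11 higher (14.3% and 78.6%; 4 lower and 7 higher without TMM, 3 and 10 with DESeq2), led by Pabpc1, the poly(A) binding protein, at 1.89 ± 0.13 and by Eef1a1 at 1.25 ± 0.07. In D, 7 were lower and 4 higher (7 and 2 without TMM, 4 and 7 with DESeq2). In RS, 10 were lower and 3 higher than in D (71.4% and 21.4%), from Eef1b2 at -1.35 ± 0.07 to Eef1d at 1.38 ± 0.11.

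Of 30 ribosome biogenesis genes, 17 were lower and 2 higher in early SC (56.7% and 6.67%). In P, 13 were lower and 14 higher (43.3% and 46.7%; 19 and 8 without TMM, 15 and 10 with DESeq2), from Dkc1, the X-linked pseudouridine synthase, at -4.71 ± 0.19 and the RNA polymerase I factor Ubtf at -2.86 ± 0.11 to Sbds, which releases eIF6 from the large subunit, at 2.68 ± 0.12. In D, 19 were lower and 6 higher (63.3% and 20%; 14 and 9 with DESeq2), and the nucleolar genes Ncl and Nop56 fell by 2.29 and 2.03. In RS, 17 were lower and 10 higher (56.7% and 33.3%). Of the 14 regulators tested, 4 were lower and 8 higher in early SC (28.6% and 57.1%), 9 and 3 in P (64.3% and 21.4%), 12 and 1 in D (85.7% and 7.14%) and 8 and 2 in RS (57.1% and 14.3%). The mTOR target Eif4ebp1 fell by 1.87 and then by 3.70 and rose by 3.79 ± 0.30 from D to RS, while Larp1 rose by 1.49 ± 0.08 and Larp1b by 1.64 ± 0.09 in P. Mycn fell by 4.01 in P.

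Fau and Rack1, which encode small subunit proteins under other symbols, fell in RS. Fau, whose product carries a small subunit protein, fell by 0.55 in early SC, was higher by 0.31 ± 0.07 in P and 0.37 ± 0.07 in D, and fell by 0.61 in RS. Rack1, a scaffold protein of the small subunit head, fell by 0.49 in early SC, was higher by 0.31 ± 0.07 in P, and fell by 0.94 from P to D and by 1.73 from D to RS (adjusted p = 3.03e-13 by edgeR's quasi-likelihood test with Benjamini-Hochberg adjustment). The log2 fold changes of both in P turned without TMM, to -0.29 for each, and with DESeq2 they were 0.04 for Fau and 0.05 for Rack1, neither of them called.

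In SG and early SC, the core genes held a lower share of transcripts in the NELF-B cKO mice and a higher share in the TDP-43 cKO mice than in the control mice. In SG the core genes held 14.0, 14.2, 14.0 and 14.4% of UMIs in control mice, 10.2 and 13.2% in NELF-B cKO animals and 18.2, 16.6 and 15.5% in TDP-43 cKO animals, and the groups did not overlap. In early SC they held 10.5, 10.1, 10.3 and 9.94% in the control mice, 7.23 and 8.52% in NELF-B cKO and 13.3, 11.3 and 10.7% in TDP-43 cKO mice, again without overlap. In pL the NELF-B cKO mice had 8.67 and 10.0% and the TDP-43 cKO mice 16.1, 14.5 and 14.1%, against 12.1 to 12.5% in the control mice. In L, 1 TDP-43 cKO value (9.10%) lay within the control range of 8.70 to 9.21%. In P, the NELF-B cKO mice had 6.22 and 7.57%, on both sides of the control values, and TDP-43 cKO mice had fewer than 20 P cells each. In RS, NELF-B cKO replicate 1 had 4.25%, within the control range, and TDP-43 cKO replicates 2 and 3 had 3.49 and 3.63%, below it, from 28 and 57 cells. With no cell left out, the mean of the TDP-43 cKO mice in RS was 4.41%, within the control range. The shares are given without a test because the genes summed were chosen as a set.

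The replicates of a cKO differed widely from each other. NELF-B cKO replicate 1 had 10.2% in SG and replicate 2 13.2%, a gap larger than the whole range of the 4 control mice. TDP-43 cKO replicate 1 had the highest share in SG, pL, L, Z and Sertoli cells of its group and also the highest in free RNA, 14.1%. In free RNA the NELF-B cKO mice lay above the control mice while in SG they lay below them. The cKO mice also differed in markers of other cells: 16 markers of P, D and RS in SG summed to 305 to 511 CPM in control, 175 and 342 CPM in NELF-B cKO and 136 to 173 CPM in TDP-43 cKO mice, and 35 markers of somatic cells summed to 123 to 256 CPM in control, 224 and 512 CPM in NELF-B cKO and 247 to 255 CPM in TDP-43 cKO mice, with up to 5, 0 and up to 4 of the 35 at 0. In early SC the P, D and RS markers summed to 528 to 716 CPM in control, 217 and 468 CPM in NELF-B cKO and 184 to 340 CPM in TDP-43 cKO mice, the somatic markers to 172 to 255, 189 and 623, and 281 to 289 CPM, and 5 SG markers to 296 to 430, 427 and 516, and 334 to 399.6 CPM. Their part in the core levels was not tested.

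Gene by gene, no core gene was called in NELF-B cKO SG and early SC together by edgeR's quasi-likelihood test with Benjamini-Hochberg adjustment with all 9 mice in 1 fit. Of 77 core genes, 0 were lower and 0 higher, where 0.00512% and 0% of all 19524 tested genes were, 26 were lower and 0 higher at an unadjusted p under 0.05 (background 6.64%), and DESeq2 called 8 lower, and 1.16% of all genes. The core median was -0.29 against -0.02 over all genes, and 75 of 77 values were below 0. In CPM, 33 core genes lay below every control mouse in both NELF-B cKO mice, where 9.79% of all genes did. In SG alone 0 were lower and 0 higher (background 0.022% and 0.0165%), 24 were lower at an unadjusted p under 0.05 (background 5.23%), and DESeq2 called 5 lower, and 0.446% of all genes. In early SC 0 were lower and 0 higher (background 0.00636% and 0%), 51 were lower at an unadjusted p under 0.05 (background 7.29%), and DESeq2 called 31 lower, and 1.66% of all genes. The medians were -0.28 in SG and -0.40 in early SC. In SG and in both together, these values rest on replicate 1. Without it the median was -0.06 in both together, -0.06 in SG and -0.28 in early SC. Without replicate 2 the medians were -0.55, -0.46 and -0.56. Each of these fits leaves 1 NELF-B cKO mouse, so no calls are given for them.

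Rpl36a, Rpl23a, Rpl6 and Rpl11, all of the large subunit, had the lowest values in NELF-B cKO SG and early SC together. Rpl36a had 493, 604, 553 and 482 CPM in control mice and 254 and 418 CPM in NELF-B cKO animals, a log2 fold change of -0.68 ± 0.22 (SE, adjusted p = 0.242). Rpl6 had 1154, 1371, 1308 and 1230.2 CPM in control mice and 715 and 965 CPM in NELF-B cKO animals, a log2 fold change of -0.60 ± 0.14 (adjusted p = 0.192). Rpl23a had -0.62 ± 0.15, with both cKO mice below all control mice, and in early SC alone -0.86 ± 0.14 (adjusted p = 0.0731). At the other end Rps21, Rplp2 and Rps19 had values of 0.01, 0.00 and -0.02, and Rps19 had 1948, 1772, 1909 and 1828 CPM in the control mice against 1616 and 2092 CPM, on both sides of them.

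In TDP-43 cKO SG and early SC together, all 77 core genes had values above 0 and none was called by edgeR's quasi-likelihood test with Benjamini-Hochberg adjustment. The counts were 0 lower and 0 higher (background 0.00512% and 0%), 59 higher at an unadjusted p under 0.05 (background 9.05%), and 36 higher by DESeq2, which called 2.86% of all genes higher. With only the control and TDP-43 cKO mice in the fit, 42 were called higher, and 3.84% of all genes. The core median was 0.36 against 0.01 over all genes, and 55 core genes lay above every control mouse in all 3 TDP-43 cKO mice in CPM, where 9.21% of all genes did. In SG alone 0 were lower and 0 higher (background 0.00551% and 0%), 59 were higher at an unadjusted p under 0.05 (background 7.77%), and DESeq2 called 38 and 2.19% of all genes higher, with a median of 0.34. In early SC 0 were lower and 1 higher (background 0.223% and 0.592%), 41 were higher at an unadjusted p under 0.05 (background 10.6%), and DESeq2 called 14 and 2.76% of all genes higher, with a median of 0.28. With no cell left out, the medians were 0.20 in SG and 0.16 in early SC, and without TDP-43 cKO replicate 1 that of early SC was 0.16. The cells left out held more UMIs than those kept in each TDP-43 cKO mouse, with medians of 36236, 22746 and 23341 against 17791, 11571 and 12291. The same held in both NELF-B cKO mice, with medians of 25287.5 and 39392 against 10412 and 18939.

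The 1 gene called was Rpl10. It had 182, 185, 182 and 171 CPM in early SC of control mice and 365, 302 and 277 CPM in TDP-43 cKO animals, without overlap, a log2 fold change of 0.89 ± 0.16 (SE, adjusted p = 0.0387). The call was lost when any 1 of the 4 control or 3 TDP-43 cKO mice was left out and when no cell was left out. Of 590 other X-linked genes tested there, 56 were called higher and 0 lower, with a median of 0.42. Early SC pools pL, L and Z, and the control level of Rpl10 was lower in Z than in pL. Control mice held 158 to 441 Z cells among 412 to 817 early SC cells, and TDP-43 cKO mice 32 to 207 among 243 to 538. The part of this mix in the early SC values was not tested. Rps4x, with 19.5, 21.6, 29.9 and 26.7 CPM in control mice and 63.3, 38.5 and 35.0 CPM in TDP-43 cKO animals, had 0.98 ± 0.26 (adjusted p = 0.0666), and Rps20 had 0.60 ± 0.15 (adjusted p = 0.0626). The free RNA of these TDP-43 cKO mice held 622, 190.4 and 205 CPM of Rpl10 and 1072, 177 and 227 CPM of Rps4x, which for Rpl10 was above the early SC level in replicate 1 and for Rps4x in all 3, and its part in these values was not tested. In SG and early SC together the highest values were those of Rps4x, Rpl10, Rps2 and Rpsa, and Rpsa had 1581, 1526, 1667 and 1516 CPM in control mice and 2615, 2158 and 2118 CPM in TDP-43 cKO animals (0.61 ± 0.15, adjusted p = 0.0887). The lowest were Rps29 at 0.07 ± 0.16 and Rpl29 at 0.08 ± 0.14.

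Set directly against each other, the TDP-43 cKO mice had higher values than the NELF-B cKO mice for all 77 core genes in SG and early SC, with a median log2 fold change of 0.65 against -0.03 over all genes. By edgeR's quasi-likelihood test with Benjamini-Hochberg adjustment, 0 were called lower and 0 higher (background 0.0512% and 0.0768%), 72 were higher at an unadjusted p under 0.05 (background 8.31%), and DESeq2 called 64 higher, and 2.40% of all genes. Rpl36a had the largest value, 1.22 ± 0.23 (adjusted p = 0.0831), then Rpl10 with 1.11 ± 0.20 (adjusted p = 0.0709) and Rpl6 with 1.00 ± 0.15 (adjusted p = 0.0534).

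**Figure D5:**
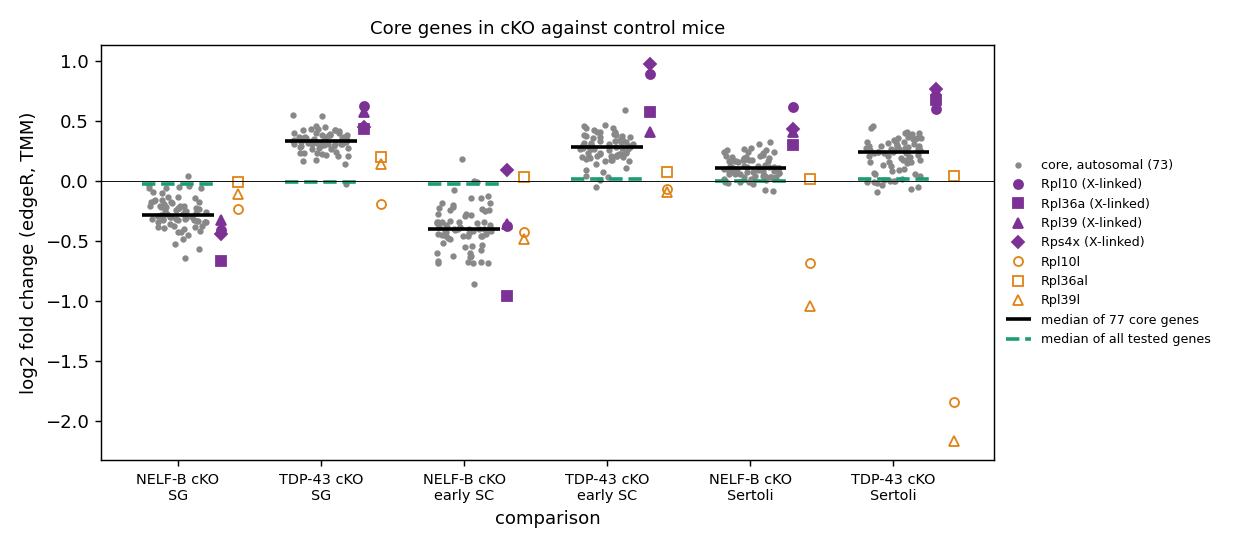
Log2 fold changes of the core genes and 3 copies in each cKO against the 4 control mice (edgeR after TMM scaling, vertical axis) in SG, early SC and Sertoli cells (horizontal axis). Grey points are 73 autosomal core genes, purple symbols the X-linked ones and open symbols the copies; lines mark medians. The core median is -0.28 and -0.40 in NELF-B cKO SG and early SC and 0.34 and 0.28 in TDP-43 cKO SG and early SC, and Rpl10l and Rpl39l are lowest in TDP-43 cKO Sertoli cells.

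Rpl10l, Rpl39l and Rpl36al had values nearer to 0 than the core median in TDP-43 cKO germ cells, and Rpl3l, at 0.50 ± 0.21 (adjusted p = 0.188), did not. In TDP-43 cKO SG and early SC together, Rpl10l had a value of -0.16 ± 0.12 (adjusted p = 0.492), Rpl39l 0.05 ± 0.08 and Rpl36al 0.19 ± 0.10, while in NELF-B cKO they had -0.31 ± 0.14, -0.25 ± 0.10 and 0.03 ± 0.11. None of the 9 members outside the core was called, and at an unadjusted p under 0.05 Rpl39l and Rpl22l1 were lower in NELF-B cKO and Rpl3l and Rpl7l1 higher in TDP-43 cKO. Rpl10l made up 23.2, 21.7, 22.3 and 26.4% of its pair in control early SC, 32.5 and 14.9% in NELF-B cKO and 7.23, 16.6 and 17.9% in TDP-43 cKO mice, whose free RNA held 3.08, 28.5 and 25.4% where that of the control mice held 62.5 to 76.1%. Within pL, L and Z the share was 7.82 to 13.9, 14.6 to 22.7 and 43.7 to 54.0% in control mice. It was 4.39 to 5.99, 6.52 to 10.1 and 21.5 to 36.7% in TDP-43 cKO mice. In P of the NELF-B cKO mice the share was 96.7 and 84.8%, from 165 and 35 cells.

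In Sertoli cells, the somatic cells that nurse the germ cells and in which the transgene is not active, the core genes held 7.04, 5.83, 6.04 and 6.06% of UMIs in control mice, 7.02 and 6.54% in NELF-B cKO and 7.84, 7.35 and 6.76% in TDP-43 cKO mice, and the groups overlapped. The targeted genes lay below the control range in cKO Sertoli cells too, with 18.3 to 26.6 CPM of Nelfb in control and 6.35 and 10.5 CPM in NELF-B cKO mice, and 100.1 to 111 CPM of Tardbp in control and 73.6 to 80.6 CPM in TDP-43 cKO mice. By edgeR's quasi-likelihood test with Benjamini-Hochberg adjustment, 0 core genes were lower and 0 higher in NELF-B cKO (background 0% and 0%), 3 were higher at an unadjusted p under 0.05 (background 6.51%) and DESeq2 called 0, and 0.305% of all genes higher, with a median of 0.11. In TDP-43 cKO 0 were lower and 5 higher (background 9.62% and 3.44%), 26 were higher at an unadjusted p under 0.05 (background 11.4%) and DESeq2 called 13, and 4.2% of all genes higher, with a median of 0.24. The 5 were Rps4x, Rpl39, Rpl36a, Rps2 and Rpl22. Rps4x had 213, 195, 210.1 and 258 CPM in control mice and 435, 346 and 336 CPM in TDP-43 cKO animals, a log2 fold change of 0.77 ± 0.17 (adjusted p = 0.0312). Rpl39 had 352, 452, 393 and 416 CPM and 915, 589 and 522 CPM, a log2 fold change of 0.75 ± 0.19 (adjusted p = 0.035). Without any 1 mouse of either group, 0 or 1 core genes were called, and without control replicate 2 the median was 0.15. The TDP-43 cKO Sertoli cells were far deeper, with medians of 24841, 7495 and 19274 UMIs against 1964, 2018, 2553 and 2429 in the control mice, and summed markers of P, D and RS in them were 98.6 to 181 CPM against 516 to 1038 CPM. Rpl39l, at 465, 182, 186 and 180.1 CPM in control and 27.8, 87.1 and 52.8 CPM in TDP-43 cKO Sertoli cells, had -2.17 ± 0.65 (adjusted p = 0.0566). How far depth and free RNA carry these values was not tested.

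Some somatic cell types also had a higher share in TDP-43 cKO mice and others did not. In Leydig cells, which make testosterone, the core genes held 12.8, 13.6, 12.0 and 13.1% of UMIs in control and 14.3, 16.0 and 15.2% in TDP-43 cKO mice. In interstitial cells they held 13.6, 15.6, 15.0 and 16.1% in the control mice, 14.1 and 16.7% in NELF-B cKO and 17.5, 17.3 and 16.9% in TDP-43 cKO mice. In both cell types all 3 TDP-43 cKO mice lay above all control mice, as in SG, whereas in immune cells, with 17.7 to 19.2% in the control and 22.3, 21.9 and 18.9% in TDP-43 cKO animals, they overlapped. In endothelial cells the 2 TDP-43 cKO mice with at least 20 cells, at 13.7 and 15.0%, lay below the 1 such control mouse, at 16.2%. In myoid cells, with at least 20 cells in 2 control and 2 TDP-43 cKO mice, the TDP-43 cKO mice had 12.0 and 13.2% and the control mice 10.2 and 11.3%, and in macrophages 2 TDP-43 cKO mice had 10.8 and 11.1% and 1 control mouse 9.51%, beside 8.79 and 10.7% in NELF-B cKO mice. The NELF-B cKO mice, which lay below the control mice in SG, had 1 value within and 1 above the control range in interstitial cells and both within it in Leydig cells.

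Of the related genes, none on the lists of TOP mRNAs, regulators and biogenesis factors was called in cKO germ cells by edgeR's quasi-likelihood test with Benjamini-Hochberg adjustment. In TDP-43 cKO SG and early SC together, 2 of the 14 TOP genes were lower and 6 higher, and 1 of 30 biogenesis genes was lower and 9 higher at an unadjusted p under 0.05 (background 15.2% lower and 9.05% higher), with medians of 0.26 and 0.18. In NELF-B cKO, 6 of 14 TOP genes were lower, and 2 of 30 biogenesis genes were lower and 2 higher (background 6.64% and 7.43%), with medians of -0.24 and 0.06. Of the 15 regulators, 3 were lower and 2 higher at that threshold in TDP-43 cKO and 0 lower and 3 higher in NELF-B cKO. In TDP-43 cKO, DESeq2 called 2 TOP genes lower and 3 higher and 1 biogenesis gene lower and 7 higher, where it called 7.31% of all genes lower and 2.86% higher. In NELF-B cKO it called 2 TOP genes lower, and 1 biogenesis gene in each direction, where it called 1.16% of all genes lower and 1.51% higher. In TDP-43 cKO Sertoli cells, the same edgeR test called Myc higher by 3.11 ± 0.70 (adjusted p = 0.0313) and Eif4ebp1 by 0.67 ± 0.17. Pabpc1 fell by 0.97 and Larp1b by 0.78 there, where 9.62% of all genes were lower and 3.44% higher. The highest value of a regulator was 2.60 in NELF-B cKO Sertoli cells, 2.52 in NELF-B cKO early SC and 1.92 in TDP-43 cKO early SC. No regulator was called in those comparisons. The levels behind the values of these related genes are not given. The part of the greater depth of TDP-43 cKO Sertoli cells in their values was not tested.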

How the data were processed

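The authors deposited UMI count matrices of each library, made with Cell Ranger from reads on mm10 (the submitters' processing notes name Cell Ranger 6.1.1 and 7.0.0, Seurat 4.2.0 and DESeq2 1.36). These counts per gene and barcode are not normalized. Barcodes were kept if they had over 1000 genes and less than 10% of UMIs from mitochondrial genes. They were clustered with Leiden (leidenalg 0.10.2, resolution 0.8, 40 principal components, 20 neighbours) and named from markers. Clusters stayed unnamed for fewer than 3 markers, a median under 2000 UMIs, strong markers of another cell type or mostly barcodes of 1 mouse. No doublet caller was run. Cell types were thus rebuilt and may differ from those of the study. In cKO mice, germ cells in which the targeted gene still had a UMI were left out. UMIs of a cell type were added up within each mouse, with at least 20 cells for a level, and levels are CPM or percent of UMIs. Stages were compared in the 4 control mice with the mouse as a block, and genotypes with all 9 mice, by edgeR 4.0.16 (quasi-likelihood F test, TMM scaling, Benjamini-Hochberg adjusted p under 0.05; SE is the fold change over the root of F). DESeq2 1.42.0, R 4.3.3 and Python 3.11.15 served the alternatives. Scripts were tested on simulated data. Depth was 119203347 to 159407373 UMIs per library. Errors given as SD are the spread between mice, and those of log2 fold changes are SE. Free RNA levels beside results, medians beside those of all genes, and the counts of related lists on other scales were added after seeing the data. Members and lists were chosen with earlier results of these data known. Genes named are the X-linked members and the copies with their partners, the most abundant core genes, Rps19bp1, the 4 lowest and 4 highest core genes of each comparison, the 2 lowest and 2 highest called genes of each related list with Fau and Rack1, and the 3 genes most like Rpl10l and Rpl39l. Some results under these rules are not reported here.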

Additional observations from a re-analysis of the deposited data

Results flagged for a closer look

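Of 39 groups of 4 control mice checked, 4 held a sample far from the other 3, where chance gives about 1 in 20. The core genes held 5.94% of UMIs in D of control replicate 2. Control replicate 1 had an Rpl10l share of 85.6% of the pair in RS, an Rpl39l share of 38.6% in L and an Rpl36al share of 52.0% in pL.

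The mean core level was higher in TDP-43 cKO than in NELF-B cKO mice, with the 2 genotypes on opposite sides of the control mice, by 5.06 percentage points in SG, 3.88 in early SC, 5.52 in pL, 2.98 in Z and 4.76 in SG and early SC together. These differences of a summed level were not tested.

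In free RNA, which is no cell type and entered none of the tests, the core genes held 7.67 and 10.7% of UMIs in NELF-B cKO replicates 1 and 2 and 14.1, 8.39 and 8.98% in TDP-43 cKO replicates 1, 2 and 3, above the 6.63 to 7.40% of the control mice.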

How the results depend on the processing

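Counts of core genes called differed by over 1.5 times as follows, and the cause was not tested unless the setting is a stricter threshold. At a stricter threshold (adjusted p under 0.01, fold change of 1 or more on the log2 scale), early SC against SG gave 6 lower and 1 higher, P against early SC 5 and 2, D against P 3 and 0, RS against D 9 lower, and TDP-43 cKO early SC and Sertoli cells 0 and 0 higher. Without TMM, P against early SC gave 61 lower and 6 higher, D against P 65 and 1, and RS against D 8 higher. With every gene of at least 1 UMI, 20 were higher in P, 1 in D and 3 in TDP-43 cKO early SC, and 1 was lower in NELF-B cKO early SC. In cells with at least 5000 UMIs, 8 were higher in D and 8 in RS. DESeq2 gave 19 higher in P, 23 lower and 28 higher in D, 8, 5 and 31 lower in NELF-B cKO SG and early SC together, SG and early SC, and 36, 38, 14 and 13 higher in TDP-43 cKO SG and early SC together, SG, early SC and Sertoli cells. With only the control and TDP-43 cKO mice, 42, 36 and 9 were higher in the first 3. With no cell left out, 0 were higher in TDP-43 cKO early SC, and with such cells left out of the control mice too, 0 were higher there and 5 lower in NELF-B cKO early SC. Rps7 in D against P turned to -0.0082 without TMM.

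Leaving out 1 mouse at a time gave 17 to 32 higher in P, 1 to 4 in D, 0 to 17 lower in NELF-B cKO SG and early SC together, 0 to 22 in SG, 0 to 0 higher in TDP-43 cKO early SC, and 0 to 1 in Sertoli cells of either cKO. As a mean over cells, the core level was 14.4% in SG, 9.85% in early SC and 3.42% in RS of control mice, 2.16% in RS of TDP-43 cKO mice, and 8.10% and 8.01% in NELF-B and TDP-43 cKO Sertoli cells. With no cell left out it was 4.41% in RS of TDP-43 cKO mice, and the Rpl10l share in their SG was 13.6%.

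Without a replicate block, 3 genes were higher in early SC and 2 in D. With the replicate number as a replicate block, 0 were higher in TDP-43 cKO early SC and 0 in Sertoli cells. Deviations from the group mean of same-numbered mice of different genotypes correlated at -0.43 to 0.38 in SG and early SC together. Control and NELF-B cKO mice of the same number had 0.38 and 0.36, and control and TDP-43 cKO mice -0.21, -0.11 and 0.03. With 2 mice in a group these deviations mirror each other, so this check cannot tell whether the numbers pair the mice. Among the single members whose values were recomputed, 2530 values kept their side of the threshold. Direction was compared only for values called as reported, so an uncalled value that changed sign counts among those kept. Of the other recomputed values, 77 gained a call, 87 lost a call and 1 reversed. These counts include fits that leave 1 NELF-B cKO mouse and do not cover every core gene at every setting. Without TMM, many core genes went from called higher to called lower in P against early SC.

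Limits are the 2 NELF-B cKO mice, which differ from each other, free RNA in shallow cells, and cell types rebuilt from markers. Levels under those of free RNA cannot be told apart from it.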

Other observations

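The genes of the mitochondrial ribosome, 78 tested nuclear genes beginning with Mrpl or Mrps, were followed beside the cytosolic set. In early SC against SG, 28 were lower and 23 higher, and their shares of 35.9% and 29.5% were near those of all genes, 29.4% and 28.5%. In P against early SC, 10 were lower and 55 higher (12.8% and 70.5%, against 35.1% and 37% of all genes), and without TMM 30 were lower and 34 higher and with DESeq2 18 and 48. In D against P, 41 were lower and 17 higher (52.6% and 21.8%, against 33.5% and 31.3%), and with DESeq2 32 were lower and 28 higher. In RS against D, 61 were lower and 7 higher (78.2% and 8.97%, against 36.8% and 40.1%), beside 65 and 4 of the 77 cytosolic core genes. In SG and early SC together of the cKO mice none was called by edgeR's quasi-likelihood test with Benjamini-Hochberg adjustment. At an unadjusted p under 0.05, 13 were lower and 3 higher in NELF-B cKO mice, where 6.64% and 7.43% of all genes were, and DESeq2 called 5 lower and 1 higher (1.16% and 1.51% of all genes). In TDP-43 cKO mice 4 were lower and 31 higher, where 15.2% and 9.05% of all genes were, and DESeq2 called 3 lower and 12 higher (7.31% and 2.86% of all genes).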
